A study of Mus musculus with 12 samples.

Results

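The extracellular matrix is the mesh of proteins around cells, and 40 genes of this matrix and of its remodelling were described: collagens, basement membrane proteins, other glycoproteins and proteoglycans, cross-linking enzymes, proteases and protease inhibitors. The genes were listed by name, and each was read from 1 probe set, the one with the highest mean over all arrays. Of the 40 genes, 38 had a probe set that carries a single gene symbol, and 37 of them were tested, among 9433 tested genes and 15844 tested probe sets in all. No probe set carried the symbol Fbn1 in the annotation used, the only probe set of Loxl2 carried several symbols, and Mmp13, with a mean of 2.73, was too low to pass the filter. All levels are log2 values, so a difference of 1 is a 2-fold difference.

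RNA was measured on 12 Affymetrix arrays in ET cells, which the labels call a murine fetal thymic epithelial line of the cortex. Cultures received 5 nM TCDD, or 1,4-dioxane alone at 0.05% of the volume as solvent control, and were collected at 2, 4 and 6 h. Each of the 6 groups had 2 arrays, called biological duplicates in the design text without the step that was repeated. The p-values therefore reflect no more than the scatter of these arrays, which may be technical. No genetic change is named for any group, and all groups came from 1 cell line. For 3 arrays the label fields disagreed. One was the second TCDD array at 4 h, titled as TCDD but with solvent as its treatment characteristic. The others were both 6 h solvent arrays, which were titled 6 h and described as 4 h. Arrays were grouped by title.

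The dioxin TCDD is a ligand of AhR, the aryl hydrocarbon receptor, which enters the nucleus when bound, joins Arnt and acts on GCGTG motifs in DNA. In the thymus, epithelial and mesenchymal cells lay down laminins, collagen IV and fibronectin, on which thymocytes attach and migrate. Fibrillar collagens carry tension, basement membranes are sheets of laminin and collagen IV joined by nidogen, lysyl oxidases cross-link collagen and elastin, matrix metalloproteinases cut these proteins, and the Timp proteins inhibit the metalloproteinases.

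Promoter windows are shown for 4 genes on which the values below turn: Mmp14, Thbs2 and Timp2 had the average TCDD differences of largest size or lowest unadjusted p, and Timp3 differed most between the array sets defined below. Each window is the 250 bases before the RefSeq start in GRCm38.p6, 5′ to 3′ on the gene's strand, and capitals mark matches on either strand to GCGTG (the AhR-Arnt core), TGANTCA (AP-1), TATAAA (the TATA box), CCAAT (the CCAAT box) or GGGCGG (the GC box).
Mmp14, chr14:54431348-54431597, plus strand: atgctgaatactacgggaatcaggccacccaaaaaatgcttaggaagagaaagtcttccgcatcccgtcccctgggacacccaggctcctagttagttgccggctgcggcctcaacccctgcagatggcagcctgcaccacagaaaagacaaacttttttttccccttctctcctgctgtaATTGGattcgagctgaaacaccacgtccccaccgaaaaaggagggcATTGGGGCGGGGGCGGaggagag
Thbs2, chr17:14694263-14694512, minus strand: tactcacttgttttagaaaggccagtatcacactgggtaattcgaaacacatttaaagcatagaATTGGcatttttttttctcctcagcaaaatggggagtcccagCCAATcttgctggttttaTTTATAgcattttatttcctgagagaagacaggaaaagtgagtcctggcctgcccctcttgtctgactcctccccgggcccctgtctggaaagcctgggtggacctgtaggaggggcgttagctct
Timp2, chr11:118355412-118355661, minus strand: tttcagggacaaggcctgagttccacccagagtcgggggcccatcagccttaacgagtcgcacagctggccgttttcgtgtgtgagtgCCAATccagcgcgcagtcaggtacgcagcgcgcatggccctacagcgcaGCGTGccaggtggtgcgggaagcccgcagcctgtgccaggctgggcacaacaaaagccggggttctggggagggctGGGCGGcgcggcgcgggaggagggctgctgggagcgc
Timp3, chr10:86300162-86300411, plus strand: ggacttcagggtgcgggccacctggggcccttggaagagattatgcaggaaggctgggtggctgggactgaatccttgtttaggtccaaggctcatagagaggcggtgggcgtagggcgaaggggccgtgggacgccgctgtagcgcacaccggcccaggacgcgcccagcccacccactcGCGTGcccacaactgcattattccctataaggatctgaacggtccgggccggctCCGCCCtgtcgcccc
The Timp2 and Timp3 windows held GCGTG and a GC box, the Thbs2 window held TATAAA and CCAAT, and the Mmp14 window held CCAAT and GC boxes. Where an ATTGG in the Mmp14 window runs into a GGGCGG, the matches share letters. A match describes these letters and is not evidence of binding.

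Of the 38 measured genes, 25 had at least 1 window in the RefSeq table, 30 windows in all. GCGTG occurred in 30% of these windows, which belonged to 9 genes, and in 28.2% of all 32851 windows. GGGCGG occurred in 60% against 32.7% of all windows, TATAAA in 23.3% against 12.4%, TGANTCA in 10% against 6.75% and CCAAT in 33.3% against 33.8%. The GCGTG share of the matrix gene windows was thus near that of all windows, and the GGGCGG share was higher, as a description of these windows. Col4a1 and Col4a2, which encode the 2 chains of the common collagen IV molecule, start head to head on opposite strands of chromosome 8.

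The treatment labels were checked on Cyp1a1, the best known AhR target, which read 4.0 to 5.5 on the 6 solvent arrays and 9.3 to 11.1 on the 6 TCDD arrays. Cyp1b1 and Tiparp, chosen for the same check, read 9.7 to 10.6 and 4.5 to 6.1 on the solvent arrays. On the TCDD arrays they read 10.5 to 12 and 6.8 to 9.2, so Cyp1b1 overlapped. Their TCDD differences were 1.6 and 3.75 at 2 h, and 1.2 and 2.8 at 4 h. Neither gene passed limma's moderated test at 2 h or 4 h. The second 4 h TCDD array, whose label fields disagreed, read 10.2, 12 and 8.5 for Cyp1a1, Cyp1b1 and Tiparp. Each value was above those of all 6 solvent arrays. The arrays were clustered on all tested probe sets other than those of the matrix genes. The largest of 4 clusters held 7 arrays of both treatments and all 3 times, the larger set. The other 5 made up a smaller set, whose arrays need not be alike: at 2 h and 6 h the second array of each treatment, and the first 4 h TCDD array. Inside the smaller set the clusters followed time: the 2 h arrays, the 4 h array and the 6 h arrays each formed a cluster of their own. All groups but solvent at 4 h held 1 array of each set, so each comparison is given without and with the array set as a block. Of the labelled cell type's markers, 3 of 9 lay above the filter (Krt8, Foxn1 and Ctsl), while Epcam, Krt18, Prss16, Ly75, Cdh1 and Cd83 lay below it. Krt8 and Foxn1 had means of 5.04 and 4.36, below the array median of 5.1, and Ctsl one of 11.4. Of the medullary thymic epithelium, endothelium and blood cell markers on the array, 4 of 6, 1 of 6 and 3 of 6 lay above the filter. Of these, only Cldn3 (5.95) and Cd3e (5.56) had means above the array median. Krt5, Krt14, Aire, Kdr, Lyz2 and Cd68 had means of 4.37 to 4.99. Of 12 fibroblast and mesenchyme markers 11 lay above it, with a mean level of 8.17 to 8.50 on solvent arrays and 7.59 to 8.48 on TCDD arrays, and of 8.17 to 8.50 in the larger and 7.59 to 8.31 in the smaller set. The actin control probe sets differed by 0.7 to 0.8 (3′ minus 5′) in the larger and 0.5 to 0.6 in the smaller set, while those of Gapdh differed by 0 to 0.2 and 0 to 0.1. The part of cell makeup and RNA quality in the results was not tested. In such bulk RNA, fewer cells of a type and less RNA per cell cannot be told apart.

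TCDD changed none of the matrix genes past the test within 6 h. By limma's moderated test with Benjamini-Hochberg adjustment over 15844 probe sets, 0 of 37 passed at any of the 3 times or for the average of the 3 differences. The share of all tested probe sets that passed was 0.0189% (2 h), 0.0126% (4 h), 0.00631% (6 h) and 0.0947% (average), so a count of 0 is near this background. With the array set as a block the member count was again 0 in each, beside 0.0631%, 0.0442%, 0.0505% and 0.29% of all. An unadjusted p under 0.05 was reached by 0, 1, 0 and 2 members without the block (1.49%, 2.17%, 2.15% and 3.36% of all probe sets), and by 0, 0, 2 and 3 members with it (2.7%, 2.8%, 3.72% and 5.16% of all). For the average, 26 of 37 members lay below 0 (70.3%) and 11 above, with a median of -0.067, while 49.8% of all probe sets lay below 0 and their median was 0. In the blocked fit, 62.2% of members and 53.1% of all probe sets lay below 0, with medians of -0.067 and -0.01. The share of members below 0 was the higher one in both fits, by less with the block, and no member passed. Leaving out 1 array at a time moved the member median of the fit without the block between -0.13 and 0.

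The size of change these arrays leave room for is given by the intervals. The average differences ran from -0.42 for Mmp14 to 0.23 for Timp2. For 36 of 37 members (97.3%) the 95% interval of the average difference lay inside a 2-fold change in either direction, as it did for 97.9% of all probe sets. Dcn was the exception, with an interval of -1.22 to 0.78. At single times the intervals were wider. They lay inside a 2-fold change for 30 members at 2 h (81.1%), 23 at 4 h (62.2%) and 28 at 6 h (75.7%). The shares of all probe sets were 87.5%, 81.8% and 84.6%. At 4 h the interval of Timp3, for example, ran from -1.17 to 2.07.

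**Figure D1:**
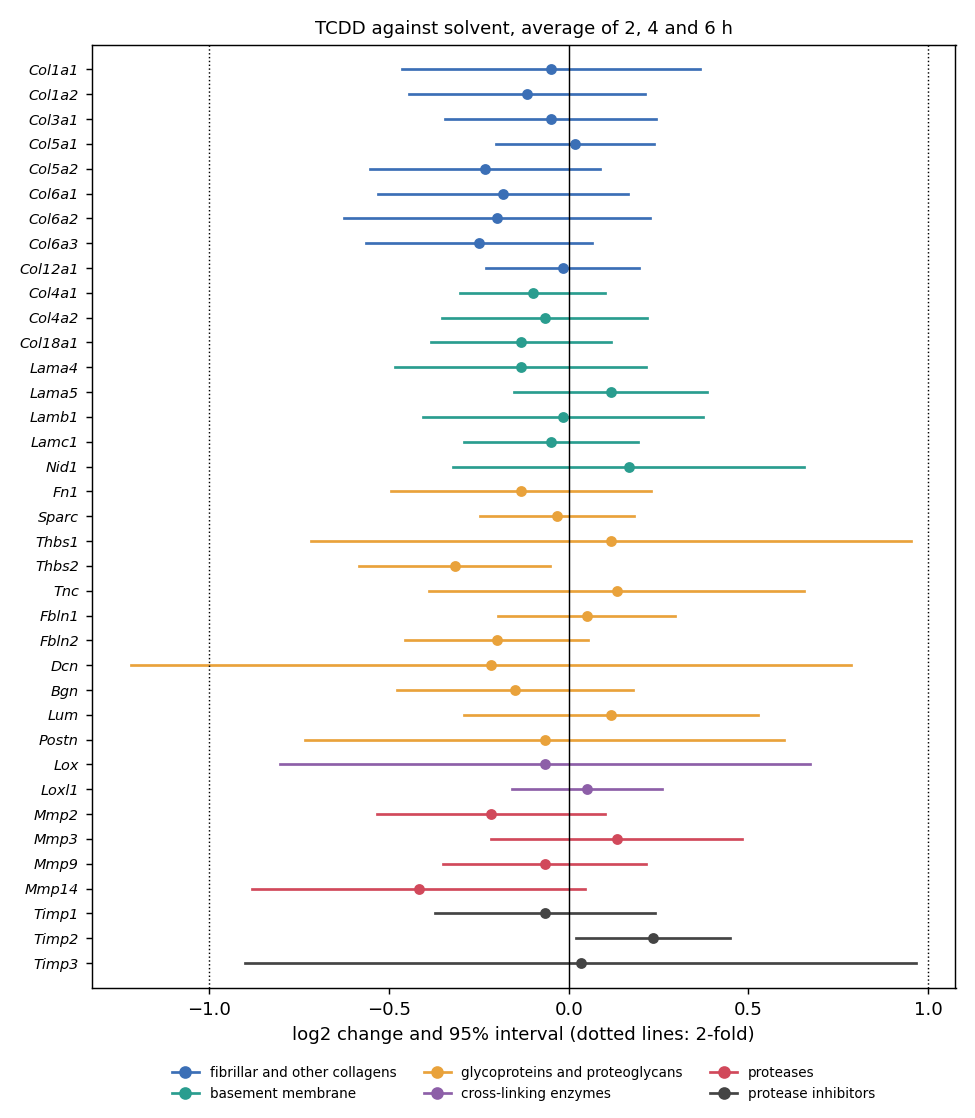
Average difference between TCDD and solvent over 2, 4 and 6 h for the 37 tested matrix genes (log2, points) with 95% intervals from the fit without a block (lines), coloured by role; dotted lines mark a 2-fold change. The points run from -0.42 (Mmp14) to 0.23 (Timp2), and only the interval of Dcn crosses a dotted line.

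Among the 9 fibrillar and other collagens, 8 averages lay below 0 and 1 above, with a median of -0.12 and 0 past the test. In the blocked fit 6 lay below 0, 1 at 0 and 2 above, and the median was -0.05. Without the block, the other tested probe sets of Col5a1 gave averages of 0.28 ± 0.13 and 0.23 ± 0.10, and that of Col3a1 gave 0.067 ± 0.27. Those of Col1a1, Col1a2, Col5a2 and Col6a2 lay below 0, at -0.067, -0.13, -0.40 and -0.20. Collagen VI forms beaded microfilaments, and its alpha 3 chain, Col6a3, had the lowest average of the 9 chosen probe sets. Col6a3 read 7.1 and 7.0 in solvent against 7.2 and 6.6 with TCDD at 2 h, 7.2 and 7.1 against 6.6 and 6.9 at 4 h, and 7.1 and 6.6 against 6.8 and 6.5 at 6 h. The groups overlapped at 2 h and at 6 h and not at 4 h. Its average difference was -0.25 ± 0.14 (SE; adjusted p = 1, 95% interval -0.57 to 0.065). Col5a2, a chain of the collagen V that seeds collagen I fibrils, read 10.8 on both solvent arrays against 10.9 and 10.6 at 2 h, 11.1 and 11 against 10.2 and 10.9 at 4 h, and 11 and 10.6 against 10.8 and 10.5 at 6 h. Here too the groups were apart at 4 h alone, and the average was -0.23 ± 0.14 (adjusted p = 1). For this and the genes below, how many of all probe sets had groups apart at a single time was not counted. At 4 h both solvent arrays were of the larger array set and the first TCDD array was of the smaller. Col1a1, a chain of collagen I, read 12.2 and 12 against 12.3 and 11.6 at 2 h, 12.3 and 12.1 against 11.6 and 12.2 at 4 h, and 12.4 and 11.7 against 12.6 and 12.1 at 6 h. Its groups overlapped at each time, and its average of -0.05 ± 0.19 was smaller than its spread between duplicates (pooled SD 0.37). It was 0.04 ± 0.10 with the array set as a block.

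The collagen differences were lowest at 4 h. Their median difference was -0.10 at 2 h, -0.35 at 4 h and -0.05 at 6 h. Below 0 lay 8 of 9 at 2 h, 8 of 9 at 4 h and 5 of 9 at 6 h. The shares of all probe sets below 0 were 42.8%, 46.4% and 51.1%. The first 4 h TCDD array had the lower value of its pair for all 9 collagens, by 0.6 for Col1a1, Col1a2 and Col3a1. With the array set as a block the 4 h median was -0.14, and again 8 of 9 lay below 0 (51.2% of all probe sets). In that fit the 4 h difference of Col1a1 was -0.03 ± 0.17 in place of -0.30 ± 0.32. That of Col6a3 was -0.22 ± 0.16 in place of -0.40 ± 0.24, and that of Col5a2 was -0.33 ± 0.18 in place of -0.50 ± 0.25.

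Of the 8 basement membrane genes, 6 averages lay below 0 and 2 above, with a median of -0.058, and with the array set as a block 5 lay below and 3 above (median -0.057). Nid1 encodes nidogen, the bridge between the laminin and collagen IV networks. It read 9.3 and 9.5 in solvent against 9.2 and 8.9 at 2 h, 8.6 and 8.8 against 8.7 and 9.4 at 4 h, and 9.3 and 9.9 against 9.5 and 10.7 at 6 h. The TCDD arrays were the lower ones at 2 h and overlapped with solvent at 4 h and 6 h, and the average was 0.17 ± 0.22 (adjusted p = 1). Without the second 6 h TCDD array, which had the highest value of all, it was -0.033. Col18a1, the basement membrane collagen from which endostatin is cut, read 6.4 and 6.2 against 6.3 and 6.1 at 2 h, 6.7 and 6.6 against 6.4 on both TCDD arrays at 4 h, and 6.3 and 6.1 against 6.4 and 5.9 at 6 h. Only the 4 h groups were apart, and the average was -0.13 ± 0.11 (adjusted p = 1). Lama5, a laminin alpha chain of epithelial basement membranes, read 6.0 and 6.5 against 6.3 on both TCDD arrays at 2 h, 6.1 on both solvent arrays against 6.5 and 6.1 at 4 h, and 5.9 and 6.1 against 6.0 and 6.2 at 6 h. The groups overlapped or touched at each time (average 0.12 ± 0.12). The collagen IV genes Col4a1 and Col4a2 had averages of -0.10 ± 0.09 and -0.067 ± 0.13.

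Of the 11 glycoproteins and proteoglycans, 7 averages lay below 0 and 4 above (median -0.067), and the same numbers held with the array set as a block (median -0.07). Thrombospondin 2, a secreted matricellular protein encoded by Thbs2, had the lowest unadjusted p of any member for the average TCDD difference. Thbs2 read 9.0 and 9.2 in solvent against 9.2 and 8.9 with TCDD at 2 h, 9.4 and 9.3 against 8.6 and 9.1 at 4 h, and 9.4 and 9.2 against 9.0 and 8.8 at 6 h. The 2 h groups overlapped, and at 4 h and 6 h both TCDD arrays were below both solvent arrays. The difference was -0.50 ± 0.21 at 4 h (unadjusted p = 0.036, adjusted p = 0.97), -0.40 ± 0.21 at 6 h (adjusted p = 1) and -0.32 ± 0.12 on average (unadjusted p = 0.0241, adjusted p = 1). With the array set as a block the average was -0.28 ± 0.10 (adjusted p = 0.728), so it missed the test in both fits. A second Thbs2 probe set gave an average of -0.62 ± 0.23 (adjusted p = 1). Within the larger set alone the difference was 0.2 at 2 h, -0.25 at 4 h and -0.4 at 6 h, and within the smaller set -0.3 at 2 h and -0.4 at 6 h, each from 1 TCDD array.

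Dcn and Postn varied more between duplicates than between treatments. Decorin, the proteoglycan encoded by Dcn, binds collagen fibrils. Dcn read 10.1 and 10.9 in solvent against 10.8 and 9.7 at 2 h, 10.6 and 10.5 against 8.4 and 11.4 at 4 h, and 11.1 and 10.6 against 11.4 and 10.8 at 6 h. The 4 h TCDD arrays lay on either side of both solvent arrays, 3.0 apart, and the average was -0.22 ± 0.45 (adjusted p = 1). Without the first 4 h TCDD array it was 0.28. Periostin (Postn), a matricellular protein of collagen-rich tissue, read 6.3 and 6.4 against 6.5 and 5.2 at 2 h, 6.0 and 6.1 against 5.1 and 6.7 at 4 h, and 6.6 and 6.0 against 7.0 and 6.5 at 6 h. Its groups overlapped at each time (average -0.067 ± 0.30, and 0.063 ± 0.20 with the array set as a block). Fibronectin (Fn1) and Sparc, an abundant collagen-binding glycoprotein, had averages of -0.13 ± 0.16 and -0.033 ± 0.10.

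The cross-linking enzymes were Lox and Loxl1, of which 1 average lay below 0 and 1 above without the block and both lay above with it. Lysyl oxidase (Lox) oxidises lysines of collagen and elastin so that they link. Lox read 10.3 and 10.7 in solvent against 10.7 and 9.7 at 2 h, 10.4 and 10.3 against 8.9 and 11.1 at 4 h, and 10.9 and 10.7 against 11.2 and 11.3 at 6 h. Only at 6 h were both TCDD arrays above both solvent arrays (0.45 ± 0.57, adjusted p = 1). The average of -0.067 ± 0.33 changed sign to 0.30 without the first 4 h TCDD array, to 0.10 without the second 2 h TCDD array and to 0.03 with the array set as a block. Loxl1, the relative that acts on elastin, read 9.7 on both solvent arrays against 9.8 and 9.7 at 2 h, 9.8 and 9.7 against 9.7 and 9.9 at 4 h, and 9.6 on both solvent arrays against 9.8 and 9.5 at 6 h. All 12 values lay between 9.5 and 9.9, the average was 0.05 ± 0.09, and its interval of -0.16 to 0.26 is among the narrowest of the members.

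Of the 4 tested proteases, 3 averages lay below 0, without and with the block. Mmp14 encodes the membrane-bound metalloproteinase that cuts fibrillar collagen at the cell surface and activates the gelatinase Mmp2, and it had the lowest average of all 37 members. Mmp14 read 8.9 and 8.6 in solvent against 8.8 and 8.7 with TCDD at 2 h, 9.1 and 9.0 against 8.1 and 8.6 at 4 h, and 9.2 and 8.3 against 8.7 and 7.7 at 6 h. The groups overlapped at 2 h and 6 h, and at 4 h both TCDD arrays were below both solvent arrays. Its difference was -0.70 ± 0.36 at 4 h (adjusted p = 0.97), -0.55 ± 0.36 at 6 h (adjusted p = 1) and -0.42 ± 0.21 on average (a fold of 0.749, unadjusted p = 0.0728, adjusted p = 1). With the array set as a block the average was -0.32 ± 0.13 (adjusted p = 0.854), and a second Mmp14 probe set gave -0.50 ± 0.24 without the block. Compared within a set, TCDD minus solvent was -0.1 at 2 h, -0.45 at 4 h and -0.5 at 6 h in the larger set, and 0.1 at 2 h and -0.6 at 6 h in the smaller. At 2 h, then, the arrays of both sets were within 0.1 of each other, and at 6 h TCDD was lower in both.

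Mmp2, the gelatinase that Mmp14 activates, read 10.0 and 9.9 in solvent against 10.1 and 9.9 at 2 h, 10.3 and 10.2 against 9.5 and 10.1 at 4 h, and 10.4 and 9.9 against 10.1 and 9.7 at 6 h. Its groups were apart only at 4 h, and the average was -0.22 ± 0.14 (adjusted p = 1). Mmp9, the other gelatinase, read 5.1 on both solvent arrays against 4.8 and 5.1 at 2 h, 4.7 on both solvent arrays against 5.2 and 4.6 at 4 h, and 4.8 and 5.1 against 4.8 and 4.6 at 6 h. These levels are not far above the filter value of 3.98, where RMA values compress differences, and the average was -0.067 ± 0.13. The stromelysin Mmp3 had an average of 0.13 ± 0.16. The collagenase Mmp13, below the filter, read 2.6 to 2.9 on all 12 arrays.

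Timp2 had the highest average of the members. It encodes an inhibitor that also takes part, bound to Mmp14, in the activation of Mmp2. Timp2 read 11.1 on both solvent arrays against 11.2 on both TCDD arrays at 2 h, 11.1 on both against 11.6 and 11.2 at 4 h, and 11 and 11.1 against 11.3 and 11.4 at 6 h. All 6 TCDD arrays were above all 6 solvent arrays, by a smallest gap of 0.1, which is the rounding step of the values. That held for 1 of 37 members and for 0.246% of all probe sets, and it was counted after the values were seen. The average was 0.23 ± 0.10 (a fold of 1.18, unadjusted p = 0.0357, adjusted p = 1), and 0.21 ± 0.09 with the array set as a block (adjusted p = 0.864). The other 4 tested probe sets of Timp2 gave averages of 0.12 ± 0.14, -0.017 ± 0.18, 0.067 ± 0.18 and 0.05 ± 0.17. Only the probe set with the highest mean had a 95% interval that excludes 0, and the difference between probe sets was not tested. Timp1 had an average of -0.067 ± 0.14 and Timp3 of 0.033 ± 0.42, both with an adjusted p of 1.

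**Figure D2:**
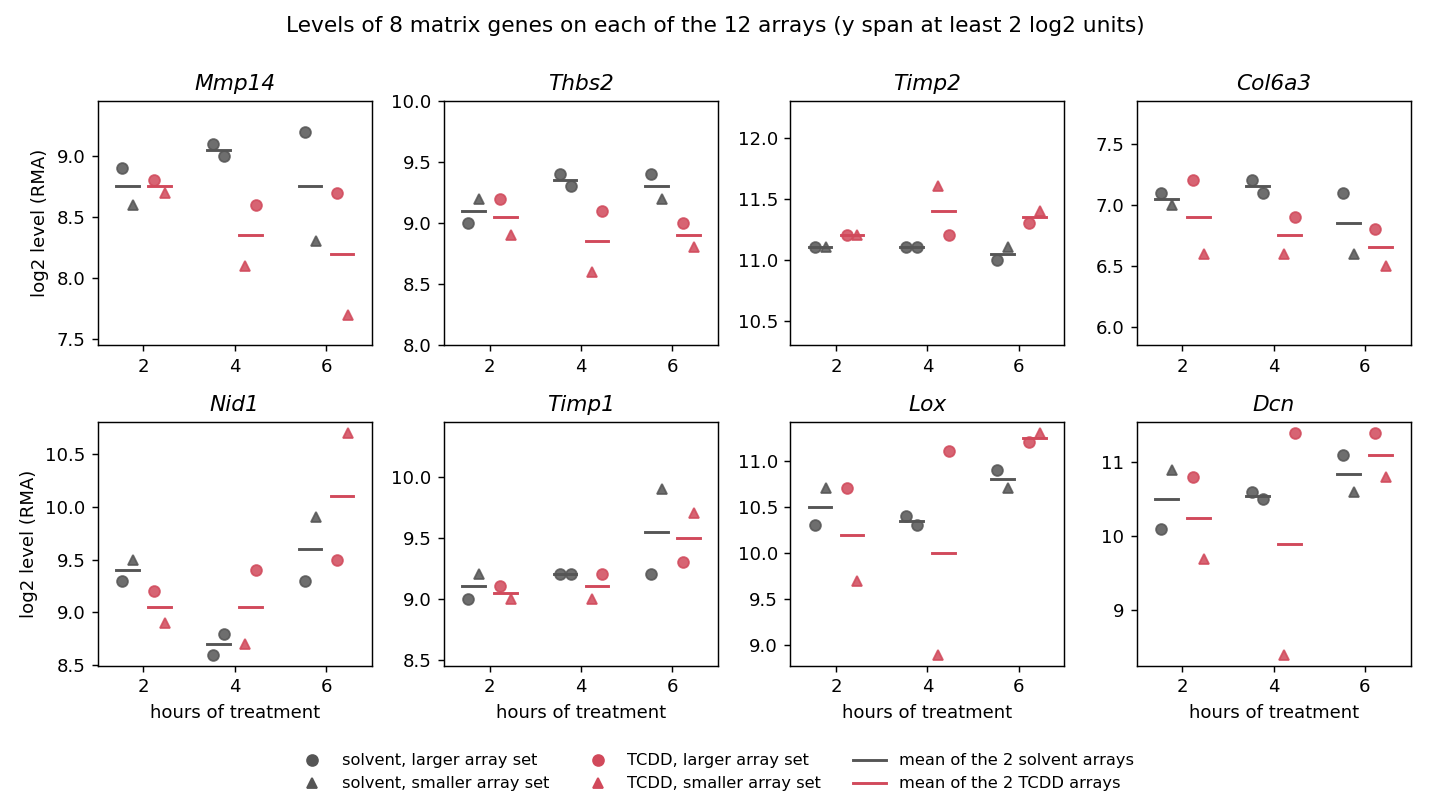
RMA log2 level of 8 matrix genes on each of the 12 arrays against hours of treatment; grey points are solvent, red points TCDD, circles the larger and triangles the smaller array set, bars the mean of the 2 arrays, and each panel has its own y axis. Mmp14 and Thbs2 were lower with TCDD at 4 h, Timp2 was above solvent on all 6 TCDD arrays, and for Lox and Dcn the 4 h TCDD arrays were 2.2 and 3.0 apart.

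The difference between TCDD and solvent was also asked to change over time, by a moderated F-test over the 3 times. It passed for 0 of 37 members and for 0% of all probe sets, with an unadjusted p under 0.05 for 0 members and 105 probe sets. From the 2 h to the 6 h difference, the members ran from -0.55 (Mmp14) to 0.95 (Postn). All 4 proteases had a lower difference at 6 h than at 2 h, with a median of -0.20, none of them past the test. The difference was lower at 6 h for 51.3% of all probe sets. For Mmp3 and Mmp9 the change was -0.10, no larger than the rounding step of the values. At 4 h these 2 genes had differences of 0.20 each, above their 2 h differences of 0.15 and -0.15.

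Some members were further apart between 2 h and 6 h than any was between treatments on average, and again none passed. Averaged over both treatments, 0 of 37 members passed at 4 h against 2 h and 0 at 6 h against 2 h by limma's test, as did 0% of all probe sets in both. With the array set as a block the member counts stayed 0, beside 0% and 0.00631% of all probe sets. An unadjusted p under 0.05 was reached at 4 h by 1 member, Lamc1, the gamma chain shared by most laminins, at -0.33 ± 0.13 (unadjusted p = 0.0348, adjusted p = 0.99). That is 2.7% of the members, beside 2.84% of all probe sets. It was reached at 6 h by 2 members (5.41%), Nid1 and Timp1, beside 11.1% of all probe sets, so the member share was below the background. Both 6 h solvent arrays carry 4 h in part of their labels, which bears on each 6 h value.

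Nid1 averaged 0.63 ± 0.27 higher at 6 h than at 2 h (unadjusted p = 0.0424, adjusted p = 0.445), a fold of 1.54. Its 2 h arrays read 8.9 to 9.5 and its 6 h arrays 9.3 to 10.7, so the times overlapped. A second Nid1 probe set gave 0.30 ± 0.19. Timp1, the inhibitor best known as an induced, secreted protein, read 9.0 and 9.2 in solvent and 9.1 and 9.0 with TCDD at 2 h, 9.2 on both solvent arrays and 9.0 and 9.2 with TCDD at 4 h, and 9.2 and 9.9 in solvent and 9.3 and 9.7 with TCDD at 6 h. No 6 h array was below a 2 h array, and the higher 6 h array of each treatment was the one of the smaller set. Its difference was 0.45 ± 0.17 (a fold of 1.37, unadjusted p = 0.0232, adjusted p = 0.442).

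Lox had the largest difference between 6 h and 2 h at 0.68 ± 0.40 (adjusted p = 0.513), with 9.7 to 10.7 at 2 h and 10.7 to 11.3 at 6 h, and its second probe set gave 0.70 ± 0.38. Dcn differed by 0.60 ± 0.55 and Postn by 0.43 ± 0.37, each within the spread of its duplicates. Timp3 differed by 0.43 ± 0.51, again within the spread of its duplicates. Col6a3 and Lama5 were both at -0.23 (± 0.17 and ± 0.15), Col1a1 at 0.18 ± 0.23, Mmp14 at -0.28 ± 0.25, Mmp9 at -0.20 ± 0.15 and Loxl1 at -0.10 ± 0.11. Over all members the median was 0.05, with 21 of 37 above 0 (56.8%, against 44.6% of all probe sets, whose median was -0.025). At 4 h the member median was 0, and Thbs1, a matricellular protein that activates latent TGF-beta, had the lowest value at -0.98 ± 0.46 (adjusted p = 0.99). Thbs1 was at -0.69 ± 0.20 (adjusted p = 0.84) with the array set as a block.

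**Figure D3:**
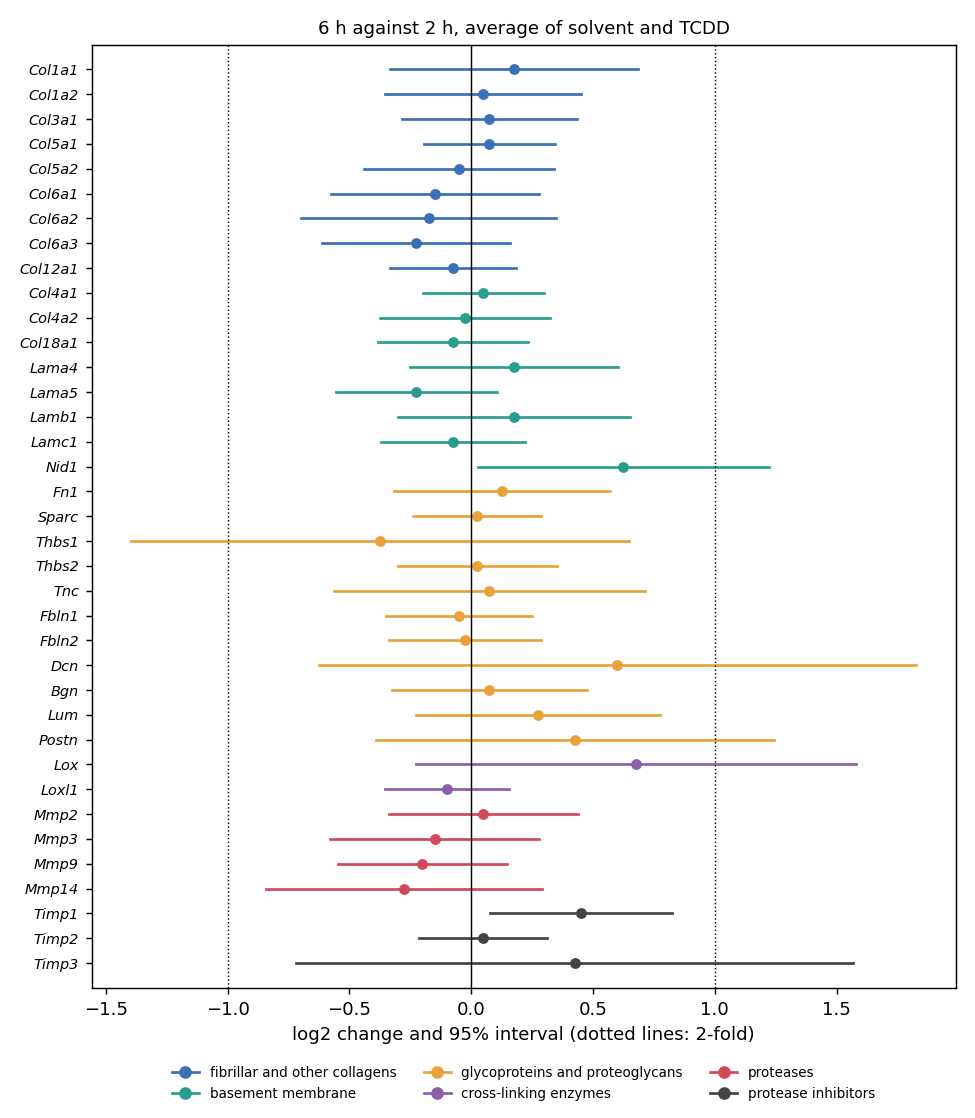
Difference between 6 h and 2 h, averaged over solvent and TCDD, for the 37 tested matrix genes (log2, points) with 95% intervals from the fit without a block (lines), coloured by role; dotted lines mark a 2-fold change. Lox (0.68), Nid1 (0.63) and Dcn (0.60) lie furthest to the right, and only the intervals of Nid1 and Timp1 exclude 0.

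Part of the matrix genes differed between the array sets in the same direction in every group compared. Duplicates of the 5 groups with 1 array of each set were compared, smaller minus larger set, as a description with no test, since the sets come from these arrays, with the members left out of the clustering. Of 37 members, 11 (29.7%) were lower on the smaller set's array in all 5 groups, beside 8.89% of all probe sets. They were Col1a1, Col1a2, Col6a1, Col6a2, Col6a3, Lama4, Lamb1, Fbln2, Bgn, Mmp2 and Mmp14. Their mean differences ran from -0.56 (Col6a2 and Mmp14) to -0.24 (Fbln2), and 5 of the 9 collagens were among them. Higher in all 5 groups were 4 members (10.8%, beside 7.56% of all): Timp3, Thbs1, Tnc and Fbln1. The whole member list had a median of -0.22, and all probe sets one of 0.02.

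Timp3, the inhibitor that stays bound to the matrix and also blocks ADAM proteases, differed most. It read 7.9 and 9.2 in solvent and 8.1 and 8.8 with TCDD at 2 h, 8.0 and 7.8 in solvent and 8.8 and 7.9 with TCDD at 4 h, and 8.2 and 9.9 in solvent and 7.8 and 9.8 with TCDD at 6 h. The 7 arrays of the larger set lay at 7.8 to 8.2 and the 5 of the smaller at 8.8 to 9.9, with no overlap. Its mean difference was 1.32, a value of 0.7 to 2.0 in the single groups, and its 3 other probe sets gave 1.34, 1.22 and 1.00. Thbs1 read 8.3 to 9.1 on the arrays of the larger set and 9.4 to 10.7 on those of the smaller (mean difference 1.16). Tnc, the gene of tenascin C, a glycoprotein of remodelling tissue, read 5.3 to 5.7 and 6.2 to 6.4 (0.74). The averages of TCDD for these 3 genes were 0.033 ± 0.42, 0.12 ± 0.37 and 0.13 ± 0.23, and with the array set as a block they were -0.19 ± 0.17, -0.077 ± 0.16 and 0.01 ± 0.09. The sign thus turned for Timp3 and Thbs1, and the value for Tnc came close to 0, with none past the test in either fit.

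The pair of 4 h TCDD arrays contributed the most spread. The median absolute difference between its duplicates was 0.5 over the members and 0.4 over all probe sets, and 17 members differed by over 0.5. The other groups had member medians of 0.1 to 0.4 and 0 to 11 members over 0.5. The pair of 4 h solvent arrays, both of the larger set, was closest. The first 4 h TCDD array was lower than the second by 3.0 for Dcn, 2.2 for Lox and 1.6 for Postn. Its part in the 4 h results was measured by leaving it out: the median difference of the members at 4 h was then 0.05 in place of -0.15, and 0 of 37 passed, as before. Within the 7 arrays of the larger set, TCDD against solvent gave 2 members past the test in the 2 h comparison, 1 each in those of 4 h and 6 h, and 3 for the average, beside 11.3%, 12.7%, 10.8% and 14.7% of all probe sets. Over time, 3 members passed between 4 h and 2 h (8.88% of all) and 5 between 6 h and 2 h (17.7% of all), and 0 for the change of the TCDD difference (0% of all). That fit takes its spread from the 4 h solvent pair alone (1 residual degree of freedom), so its p-values rest on 1 pair of arrays. The 3 for the average were Lama5 (0.13), Mmp9 (-0.13) and Timp2 (0.17).

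**Figure D4:**
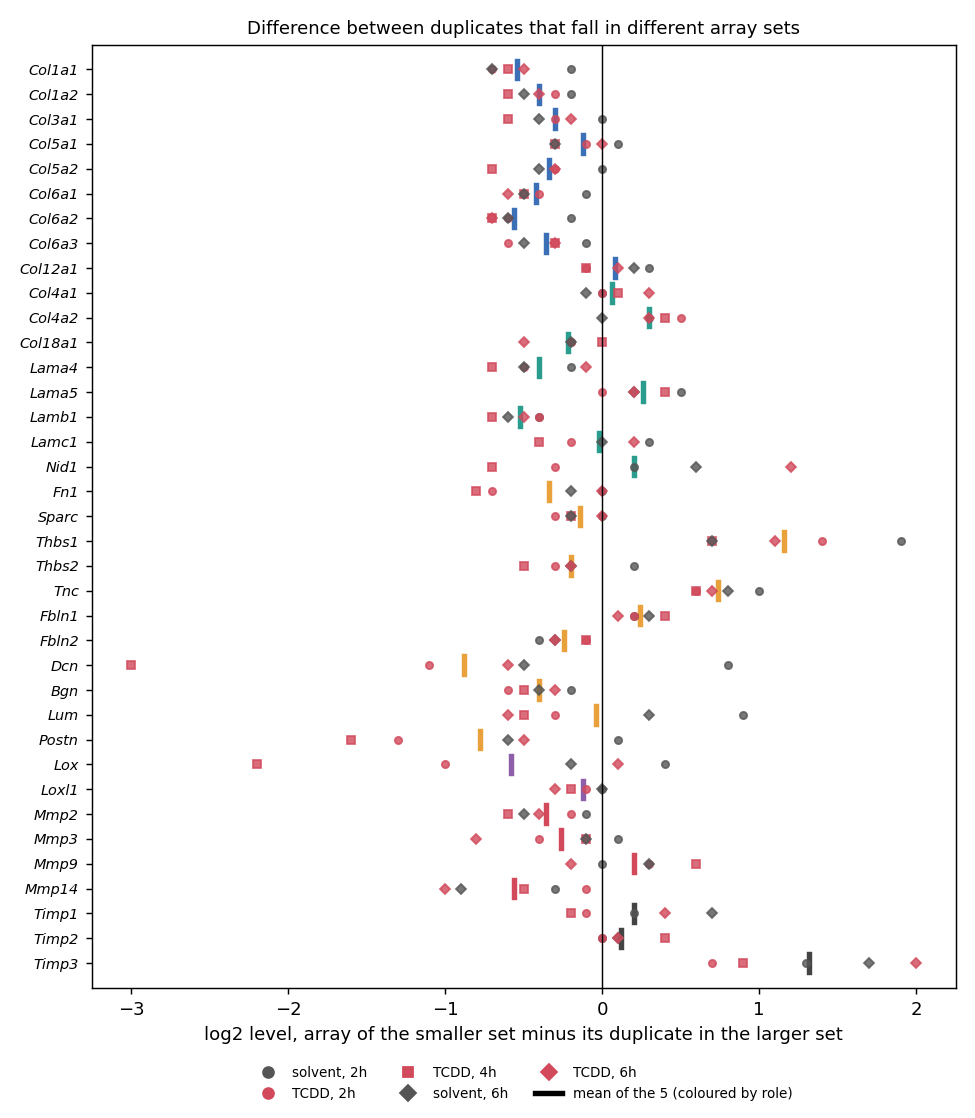
Difference in log2 level between the duplicates of the 5 groups that hold 1 array of each set, smaller minus larger set, for the 37 tested matrix genes; points are single groups (grey solvent, red TCDD, shape by time) and bars the mean of the 5. Timp3 (1.32), Thbs1 (1.16) and Tnc (0.74) lie to the right of 0 in each group, most collagens lie to the left, and the 4 h TCDD pair sits far left for Dcn (-3.0), Lox (-2.2) and Postn (-1.6).

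Other genes of the matrix were counted from a list of 116, of which 102 had a probe set and 84 were tested: other collagens and laminins, other glycoproteins and proteoglycans, collagen-processing enzymes, other proteases and inhibitors, and matrix receptors. None of the 84 passed limma's test in any of the 7 comparisons, without the block or with the array set as a block. On average over the 3 times, 9 of them (10.7%, beside 3.36% of all probe sets) had an unadjusted p under 0.05, 23 (27.4%, beside 44% of all) lay above 0, and the median was -0.083. Under the set block these were 13 (15.5%, beside 5.16% of all), 32.1% (beside 45.7% of all) and -0.05. The list was chosen with earlier results of these data known, so these shares describe it and do not test it. Adamts1, a secreted protease that cuts large proteoglycans, had the lowest average at -1.03 ± 0.34, and Cd44, the cell surface receptor of hyaluronan, the highest at 0.48 ± 0.18 (adjusted p = 1 for both).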

How the data were processed

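The values deposited by the authors are log2 levels per probe set, from RMA of a version not stated (per the submitters' processing notes). The build and any filter are not given in the sources used here. By its construction RMA corrects background, equalises the array distributions and combines a set's probes, so it hides any change common to all genes. The values have 1 decimal and span 2.2 to 14.1, and each array's median is 5.1. For arrays no depth applies: their number, 2 per group, limits the precision. All 12 columns were used.

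Of 22690 probe sets 64 controls were set aside. GEO's platform annotation gave 20380 of the others 1 gene symbol, 691 several and 1555 none, and only the first kind was named; 20351 matched a RefSeq table of GRCm38.p6, which changed 0 symbols. Probe sets with a mean at or above the 30th percentile (3.98) were tested with limma 3.58.1 in R 4.3.3, with 6 group means over 12 arrays (6 residual degrees of freedom), two-sided, with Benjamini-Hochberg adjustment within each of 7 comparisons and an adjusted p under 0.05 as passed. Errors after ± are standard errors. The scripts were tested on simulated data. Array sets came from complete-linkage clustering without the members, cut into 4; as the sets come from these values, p-values with the set block can be too small. Values on every array are given for the 2 members of each role with the largest average TCDD difference and the 2 with the largest difference between 6 h and 2 h. The members, the other lists and the alternatives were chosen with earlier results of these data known.

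Whether equal replicate numbers pair arrays was checked. The duplicate differences of solvent and TCDD correlated across 15844 probe sets at 0.365 (2 h), 0.159 (4 h) and 0.705 (6 h). At 2 h and 6 h the second array of each treatment was of the smaller set. A pairing there cannot be told apart from the array sets. The main fit used no pairing, and equal numbers were taken as pairs within a time in an alternative fit only. A fit with that block is among the alternatives, with the array set block, other filters and variance settings, the next probe set of a gene, and each array left out in turn.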

Additional observations from a re-analysis of the deposited data

How the results depend on the processing

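No member passed in any comparison with each of 12 arrays left out in turn (0 to 0), other filters, variance settings, probe sets or array centring, and the same held with the added array set block without the first 4 h TCDD array. The added fit to the larger array set alone, chosen after seeing the data, gave 2, 1, 1 and 3 members for TCDD at 2 h, 4 h, 6 h and on average, 3 at 4 h against 2 h and 5 at 6 h against 2 h, beside 8.88% to 17.7% of all probe sets (0% and 0 members for the change over time). The replicate block within each time treats equal replicate numbers as pairs. With it, 0 of 37 members passed in each TCDD comparison, and no call of a member changed. The median TCDD differences were -0.05, -0.15, -0.05 and -0.067. That block leaves no estimate of the differences between times, for which the replicate block over all times was used (0 members, median 0.05 at 6 h against 2 h). The member median at 4 h moved from -0.15 to 0.0071 with the array set block and replicate block together, and to 0.05 without the first 4 h TCDD array, with the set block and that array left out, and in the larger set alone; over single arrays left out it ranged from -0.25 to 0.05. The average TCDD difference changed sign for Dcn (0.029 with both blocks, 0.28 without the first 4 h TCDD array with or without the set block, 0.62 in the larger set alone), for Lox (0.03 with the set block, 0.10 with both blocks, 0.10 without the second 2 h TCDD array, 0.30 without the first 4 h TCDD array with or without the set block, 0.48 in the larger set alone), for Timp1 (0.05 without the second 6 h solvent array, 0.067 in the larger set alone) for Col1a1 (0.04), Lamb1 (0.07), Postn (0.063), Thbs1 (-0.077) and Timp3 (-0.19), each with the set block, and for Nid1 (-0.033 without the second 6 h TCDD array). With single arrays left out the averages ranged from -0.72 to 0.28 for Dcn, -0.43 to 0.30 for Lox, -0.18 to 0.05 for Timp1 and -0.033 to 0.37 for Nid1. The difference between 6 h and 2 h changed sign for Mmp14 (0.10 in the larger set alone) and Timp3 (-0.075 without the second 6 h TCDD array, up to 0.93 without the first). The cause was not tested, beyond the fewer arrays of those fits. Over these settings, the larger set alone and the set block with an array left out aside, the number of all probe sets past the test ranged from 8 to 76 for the TCDD average (against 15), from 0 to 23 at 2 h (against 3), 0 to 59 at 4 h (against 2), 0 to 22 at 6 h (against 1) and 0 to 10 at 6 h against 2 h (against 0). With 2 arrays a group, changes well above 2-fold at a single time could be missed. Tiparp, from the check of the treatment labels, was 13.5-fold higher with TCDD at 2 h and 6.96-fold at 4 h. It did not pass limma's test at either time (adjusted p = 0.135 and 0.76).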
